A study of Homo sapiens with 6 samples.

Results

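Cells can be driven into apoptosis along an extrinsic and an intrinsic route. In the extrinsic route, ligands of the TNF family bind death receptors at the cell surface, the receptors recruit the adaptor FADD, and FADD recruits the initiator caspase CASP8. In the intrinsic route, mitochondria release cytochrome c, which binds APAF1 to form the apoptosome, the complex that activates the initiator caspase CASP9. Initiator caspases of both routes then cleave the executioner caspases. The 8 genes described here cover these steps, and their rows were found in the count table by gene symbol: the death receptors TNFRSF10A and TNFRSF10B, which bind the ligand TRAIL, the related receptor TNFRSF12A, the adaptor FADD, the initiator caspases CASP8 and CASP9, the apoptosome scaffold APAF1, and CYCS, which encodes somatic cytochrome c. They are 8 of the 63140 gene IDs in the table.

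Y79, an established cell line from a human retinoblastoma, was labelled wild type (WT) and grown in RPMI 1640 with fetal bovine serum. RNA-seq was performed on 3 control libraries, from cells in complete medium, and on 3 libraries from cells whose complete medium also held recombinant human arginase (rhArg), an enzyme that degrades the arginine of the medium, at 2 U/mL for 72 h. The question was how the cells respond to arginine deprivation. Whether each library was grown as its own culture is not given in the labels. The spread behind the p-values is therefore that among these 3 libraries per group and may be technical.

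The libraries held between 12580622 and 13747351 counts. All 12 photoreceptor lineage markers examined (CRX, OTX2, NRL, RCVRN and others) had counts in every library, with a summed level per length between 3612 and 3868 TPM (transcripts scaled per length and library) in the controls and between 2940 and 2982 TPM under rhArg. Most of this sum came from OTX2, with 2282 ± 130 TPM (SD, n = 3) in the controls and 1811 ± 31.3 TPM (SD, n = 3) under rhArg. In the edgeR test described below, 8 of the 12 were lower, 2 (CRX and PRDM1) were higher and 2 were not called. Of all genes tested, 30.9% were lower and 30.7% higher. Of 10 markers of other cell types, 5 had at most 3 counts in any library. The summed level of these 10 markers lay between 33.6 and 40.2 TPM in the controls and between 11.1 and 12.5 TPM under rhArg, most of it from POU4F2, a retinal ganglion cell transcription factor, with 33.8 ± 3.37 TPM (SD, n = 3) in the controls and 9.24 ± 0.998 TPM (SD, n = 3) under rhArg. The part of these shifts in the results below was not tested. In RNA from whole cultures, fewer cells of a kind and less RNA per cell cannot be told apart.

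The groups were compared by edgeR (quasi-likelihood test), with adjustment over the 15221 genes that passed a filter on low counts. A gene was called higher or lower at an adjusted p under 0.05, and it was a differentially expressed gene (DEG) if its log2 fold change (log2FC) was also over 1 in size. Of the 8 genes, 6 passed the filter, and all 6 were called. TNFRSF10B, CASP9 and APAF1 rose, and CYCS, FADD and TNFRSF12A fell. Among all genes tested, 61.7% were called (30.7% higher and 30.9% lower), so a call was common in these data. The normalized counts of the control and rhArg libraries did not overlap for any of the 6 genes, which held for 66.5% of all genes tested. Each change was smaller than 2-fold, so 0 of the 6 were DEGs by edgeR, against 23.4% of all genes tested. DESeq2 on all genes with any count gave 1 DEG, which was CASP8, a gene that the filter had removed, and DESeq2 on the filtered genes gave 0. The median log2FC was 0.04 over the 6 genes and -0.005 over all genes tested.

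**Figure D1:**
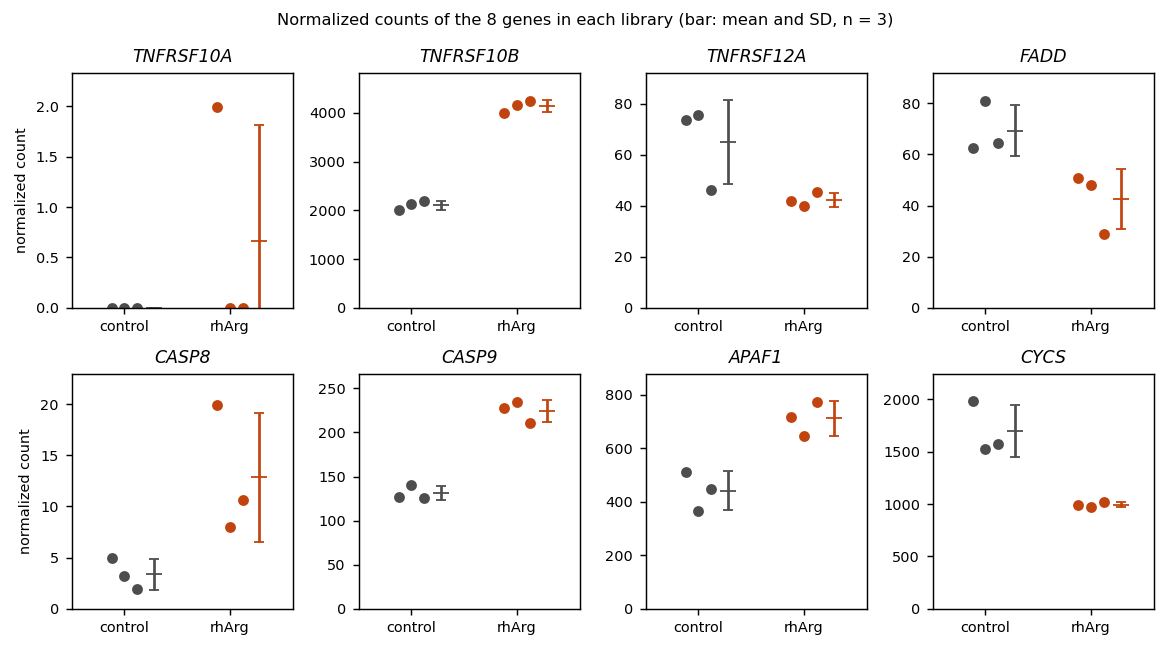
Normalized counts of the 8 genes (y axis, a scale of its own in each panel) in the 3 control and 3 rhArg libraries, with 1 point per library and a bar for the mean ± SD. TNFRSF10B, CASP9 and APAF1 lie higher in rhArg cells, CYCS, FADD and TNFRSF12A lie lower, and TNFRSF10A and CASP8 have at most 20 counts in any library.

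Promoter sequences are shown for the genes of the apoptosome and for FADD, because these genes moved in opposite directions. In GRCh38 the gene bodies lie at chr7:25118656-25125260 (CYCS), chr11:70203296-70207390 (FADD), chr1:15490832-15526534 (CASP9) and chr12:98645149-98735433 (APAF1). The RefSeq table (GRCh38.p14) held promoters for 5 of the 8 genes, FADD, CASP8, CASP9, APAF1 and CYCS. The 250 bases before the transcription start were searched on both strands for the core of the NRF1 motif (GCATGCGC), a composite C/EBP-ATF motif (TGATGCAA or TGACGCAA), the cyclic AMP response element (TGACGTCA), an E2F motif (TTTCGCGC, TTTGGCGC or TTTCCCGC), the E-box (CACGTG), a GC box (GGGGCGGGG) and the CCAAT box (CCAAT). Matches to NRF1, C/EBP-ATF, the cyclic AMP element or E2F are in capitals below. For CASP9 and APAF1 the printed stretch stops before the first annotated exon base of the gene within the window, after 151 and 109 bases. CYCS and FADD, printed over all 250 bases, each carry the NRF1 core. The shorter stretches of CASP9 and APAF1 carry no capitals, and the window of the second CASP9 start, which holds a C/EBP-ATF match, is not printed.
CYCS (chr7:25125261-25125510, minus strand): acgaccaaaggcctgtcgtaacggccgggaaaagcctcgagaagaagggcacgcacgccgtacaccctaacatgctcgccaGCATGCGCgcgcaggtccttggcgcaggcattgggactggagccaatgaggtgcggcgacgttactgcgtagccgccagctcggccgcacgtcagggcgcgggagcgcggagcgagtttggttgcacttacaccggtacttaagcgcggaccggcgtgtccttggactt
FADD (chr11:70203046-70203295, plus strand): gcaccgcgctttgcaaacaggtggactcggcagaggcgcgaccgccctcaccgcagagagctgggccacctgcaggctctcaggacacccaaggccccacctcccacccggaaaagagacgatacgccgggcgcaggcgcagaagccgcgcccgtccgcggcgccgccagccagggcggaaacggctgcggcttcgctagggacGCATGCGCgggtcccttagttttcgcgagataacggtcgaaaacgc
CASP9, first of the 2 listed starts (chr1:15524890-15525040, minus strand): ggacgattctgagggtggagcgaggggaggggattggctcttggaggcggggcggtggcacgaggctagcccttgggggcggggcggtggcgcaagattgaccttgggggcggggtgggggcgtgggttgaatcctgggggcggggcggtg
APAF1 (chr12:98645040-98645148, plus strand): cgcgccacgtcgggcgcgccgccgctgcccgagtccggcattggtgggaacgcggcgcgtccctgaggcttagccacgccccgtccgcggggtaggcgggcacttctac

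The NRF1 core was found in the promoters of CYCS and FADD. It began 169 bases before the start in CYCS and 46 bases before the start in FADD, and 2.63% of the 35116 promoters in the table held it. TNFRSF12A, which also fell, had no listed promoter. The motifs were chosen with earlier results known, and whether they bear on the direction of a gene was not tested. The promoter of the second CASP9 start held the C/EBP-ATF composite 178 bases before the start, a motif present in 1.25% of all promoters, but 230 of the 250 bases of that window lie in annotated CASP9 exons. GC boxes, found in 15.1% of all promoters, occurred 4 times before the first CASP9 start and 3 times before the second. No NRF1, C/EBP-ATF, cyclic AMP, E2F or E-box letters were present in the window of APAF1 or in the 3 windows of CASP8. The CCAAT box, in 32% of all promoters, occurred 2 times before CYCS, 1 time each before APAF1 and the first CASP9 start, and 2 times before the second CASP8 start. None of these matches overlapped each other. A match is a description of the letters, and binding was not measured.

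**Figure D2:**
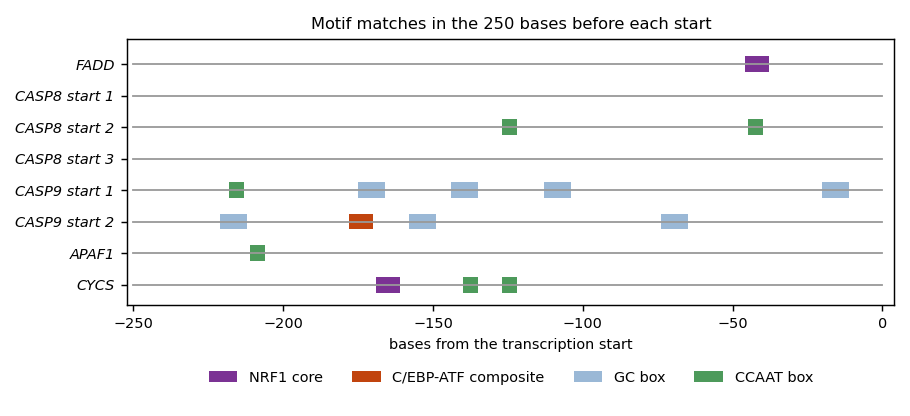
Motif matches (colored boxes) along the 250 bases before each listed start of FADD, CASP8, CASP9, APAF1 and CYCS, with the distance from the transcription start in bases on the x axis. The NRF1 core lies 169 bases before the start of CYCS and 46 bases before that of FADD, and the C/EBP-ATF composite lies before the second start of CASP9.

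TNFRSF10B, a death receptor for TRAIL that signals through FADD and CASP8, had the largest increase of the 6 genes tested. Its normalized count (the count divided by the relative effective library size) was 2005, 2121 and 2191 in the control libraries and 3999, 4151 and 4251 in the rhArg libraries. Every rhArg library was above every control library, and the gap between the groups was wider than the range within either group. The increase was 1.96-fold, a log2FC of 0.97 (standard error, SE, 0.09, edgeR adjusted p = 1.18e-07). Over the 14 alternative analyses the log2FC stayed between 0.93 and 0.998, just under the DEG threshold in each.

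TNFRSF10A, which encodes the other TRAIL receptor with a death domain, was close to undetected. The controls had 0 counts in every library, and the rhArg libraries had 2, 0 and 0 counts. These values are under the limit of 3 counts that a count of 0 allows over a group (0.0767 CPM, counts scaled to the library total, in control cells), so no fold is given. The decoy receptors for TRAIL, TNFRSF10C and TNFRSF10D, which lack a working death domain, had 0 counts in control cells and 9 and 3 counts in rhArg cells. The ligand TNFSF10 (TRAIL) had 1 count in control cells and 1 count in rhArg cells.

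TNFRSF12A, the receptor for the ligand TWEAK, has no death domain. Its normalized count was 73.5, 75.4 and 46.0 in control cells and 41.9, 39.9 and 45.3 in rhArg cells. Control replicate 3 lay close to the rhArg libraries, and the other two control libraries lay well above them. The log2FC was -0.61 (SE 0.23, edgeR adjusted p = 0.0293). This call did not hold with DESeq2 (adjusted p = 0.0878 on all genes with any count and 0.0531 on the filtered genes), nor without control replicate 1 (adjusted p = 0.0797), control replicate 2 (0.0899), rhArg replicate 1 (0.0659) or rhArg replicate 2 (0.0843). TNFSF12, the gene of TWEAK, had 2 counts in control cells and 5 counts in rhArg cells.

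TNFRSF10B outweighed the other receptors with a death domain in both conditions. The level per length, in TPM computed from the counts and the exon length of each gene, was summed over 8 such receptors (TNFRSF1A, FAS, TNFRSF10A, TNFRSF10B, TNFRSF21, TNFRSF25, NGFR and EDAR). TNFRSF10B made up 60.7%, 59.8% and 62.2% of this sum in control cells and 83.7%, 85.2% and 84.8% in rhArg cells. The groups did not overlap (exact permutation test, two-sided p = 0.1, the smallest p that 3 against 3 libraries allow). TNFRSF10B rose and TNFRSF21, the next highest in control cells, fell, each without overlap, so this test adds little to their calls. The sum itself was 230 ± 14.0 TPM (SD, n = 3) in control cells and 346 ± 7.85 TPM (SD, n = 3) in rhArg cells (exact permutation test, two-sided p = 0.1). TNFRSF10B makes up most of this sum, so the test of the sum adds little to the call of TNFRSF10B.

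The other receptors moved in several directions. Of 11 death receptors, relatives and decoys, 5 passed the filter, of which 3 were higher, 1 was lower and 1 was not called (30.7% higher and 30.9% lower among all genes tested). TNFRSF1A and NGFR passed through their rhArg counts alone, so they could enter the comparison only as higher genes and this tally is a description. TNFRSF1A, the main receptor for TNF, had 7 counts in control cells and 297 counts in rhArg cells, a ratio of 41.3 with a 95% counting interval from 19.8 to 104 (log2FC 5.29, SE 0.34). EDA2R, a receptor for an ectodysplasin isoform, had a log2FC of 3.23 (SE 0.20). The neurotrophin receptor gene NGFR, which shares 27.2% of its exon bases with other genes, had 4.12 (SE 0.61) on 4 control counts. TNFRSF21, a receptor with a death domain known from neurons, was the member that fell, with a log2FC of -1.46 (SE 0.10), and it had the next highest level after TNFRSF10B in control cells. FAS had 2 counts in control cells and 16 in rhArg cells, and it did not pass the filter.

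Ligands were nearly absent, and of 10 ligand genes of the TNF family 5 had 0 counts in every library. The exception was TNFSF9, which encodes a costimulatory ligand of T cells, with a normalized count of 103 ± 32.5 (SD, n = 3) in control cells and 299 ± 15.2 (SD, n = 3) in rhArg cells (log2FC 1.55, SE 0.18, edgeR adjusted p = 1.96e-06). Of 14 other TNF receptors, 4 passed the filter and 3 were higher, against 30.7% of all genes tested. TNFRSF13C, a receptor of B cell survival, had a log2FC of 0.91 (SE 0.14), TNFRSF11A, the receptor RANK, 0.59 (SE 0.15), and TNFRSF19 0.41 (SE 0.15). The call of TNFRSF19 was lost in 6 of 14 alternatives, which were DESeq2 on all genes with any count, edgeR with no filter, and the analyses without control replicate 2, control replicate 3, rhArg replicate 1 or rhArg replicate 3.

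FADD, the adaptor that links the death domains of the receptors to CASP8, fell. Its normalized count was 62.6, 80.8 and 64.5 in control cells and 50.9, 47.9 and 28.9 in rhArg cells. The groups did not overlap, but the lowest control library and the highest rhArg library were close, and rhArg replicate 3 lay apart from the other two. FADD had a log2FC of -0.70 (SE 0.23, edgeR adjusted p = 0.0162). The call was lost without control replicate 2 (log2FC -0.60, adjusted p = 0.0537) and without rhArg replicate 3 (-0.49, adjusted p = 0.0907). Of its exon bases, 59.2% lie in other annotated genes, with the largest overlap with a gene on the other strand (ENSG00000254721) that had 0 counts in every library. Reads that touch several genes were not counted, so FADD was counted over part of its length and its level per length is a low estimate. The ratio of TNFRSF10B to FADD in TPM was 10.5 ± 1.37 (SD, n = 3) in control cells and 35.5 ± 12.7 (SD, n = 3) in rhArg cells, a ratio that carries this limit in both groups (exact permutation test, two-sided p = 0.1). TNFRSF10B rose and FADD fell without overlap, so this ratio could not overlap and its test adds nothing to their calls.

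CASP8, the initiator caspase of the extrinsic route, had few counts in Y79 cells. It had 5, 3 and 2 counts in control cells and 20, 8 and 11 counts in rhArg cells. All 3 rhArg libraries were above all 3 controls, at levels where counting error is large. The summed counts, 10 against 39, gave a ratio of 3.80 with a 95% counting interval from 1.86 to 8.53, which covers counting error only. The gene did not pass the filter, whereas without a filter its log2FC was 1.87 (SE 0.53, edgeR adjusted p = 0.00195), and DESeq2 on all genes with any count gave 1.92 (adjusted p = 0.0383). Even in rhArg cells the level of CASP8 was 0.630 ± 0.310 TPM (SD, n = 3), against 15.1 ± 0.803 TPM (SD, n = 3) for CASP9. CASP10, the related initiator caspase, had 3 counts in control cells and 1 count in rhArg cells. CFLAR, the gene of an inhibitor that competes with CASP8 for FADD, passed the filter through its control counts alone, with 70 counts in control cells and 14 in rhArg cells (log2FC -2.33, SE 0.42, edgeR adjusted p = 0.000162).

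Of 20 genes of receptor adaptors and their inhibitors, 19 passed the filter, and 5 were higher, 7 were lower and 7 were not called, with a median log2FC of -0.002. Among all genes tested, 30.7% were higher and 30.9% lower. CFLAR and TNFAIP3 (40 counts in control cells, 14 in rhArg cells) passed through their control counts alone. They could enter only as lower genes, so the tally of this list is a description. With the stricter filter, 5 of 16 were higher and 5 lower, beside 4243 higher and 4354 lower of all 13375 genes tested there. The kinase gene RIPK1, which acts at the TNF receptor complex, had a log2FC of 1.55 (SE 0.12), RBCK1, a subunit of the linear ubiquitin ligase, 1.65 (SE 0.12), and PEA15, a protein with a death effector domain, 1.38 (SE 0.09). The adaptor gene TRAF3 had -2.40 (SE 0.13) and TRAF5 -0.64 (SE 0.10). Of 4 necroptosis genes, 3 had at most 3 counts in any library, and PGAM5, a mitochondrial phosphatase, was the member tested, with -0.67 (SE 0.09).

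**Figure D3:**
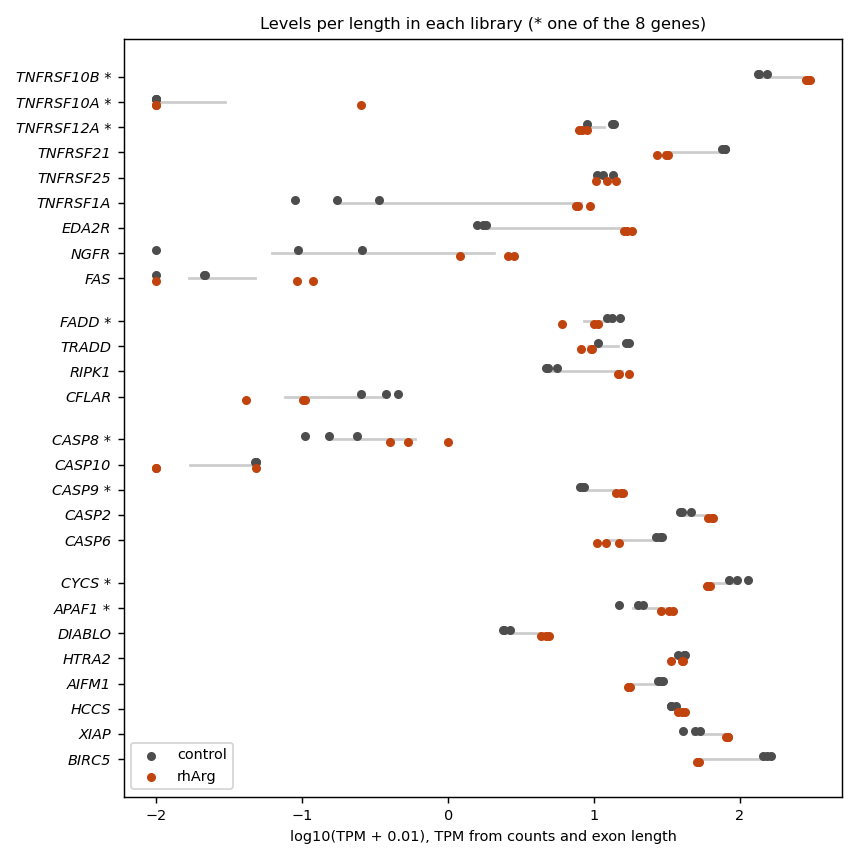
Level per length, as log10 of TPM + 0.01 (x axis), in each control (grey) and rhArg (orange) library, with a line joining the group means, for receptors, adaptors, caspases and mitochondrial factors, with the 8 genes marked by a star. FADD is a low estimate. TNFRSF10B lies highest among the receptors, and CASP8, CASP10, FAS and TNFRSF10A lie at the low end.

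The apoptosome genes moved in opposite directions, with the scaffold and the caspase higher and cytochrome c lower. APAF1, which oligomerizes when it binds cytochrome c, had normalized counts of 512, 364 and 448 in control cells and 718, 644 and 772 in rhArg cells. All rhArg libraries were above the controls, and control replicate 2 was the lowest. The increase was 1.61-fold (log2FC 0.69, SE 0.12, edgeR adjusted p = 0.000171), and the alternatives gave log2FC values from 0.55 to 0.80. Of its exon bases, 9.49% lie in other genes.

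CASP9, the initiator caspase that the apoptosome activates, had normalized counts of 127, 140 and 126 in control cells and 227, 235 and 211 in rhArg cells. The 3 libraries of each group lay close together and the groups were well apart. The increase was 1.71-fold (log2FC 0.78, SE 0.14, edgeR adjusted p = 0.000147), between 0.73 and 0.81 on the log2 scale over the alternatives.

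CYCS, the electron carrier that triggers apoptosome assembly once it is in the cytosol, had normalized counts of 1985, 1530 and 1575 in control cells and 986, 976 and 1017 in rhArg cells. The rhArg libraries were almost equal to each other, and control replicate 1 was higher than the other two controls. CYCS fell to 0.585 of the control level (log2FC -0.77, SE 0.11, edgeR adjusted p = 1.32e-05), with a range from -0.86 to -0.66 over the alternatives. CYCS has many pseudogenes, and reads that match several copies may be lost. The 42 annotated CYCS pseudogenes together had 12, 14 and 29 counts in control cells and 47, 27 and 29 counts in rhArg cells, few against the 978 to 1999 counts of CYCS.

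Ratios between the apoptosome transcripts were formed within each library. The ratio of CYCS to APAF1 in TPM was 5.28, 5.73 and 4.80 in control cells and 1.87, 2.07 and 1.80 in rhArg cells, and the ratio of CYCS to CASP9 went from 11.8 ± 2.17 (SD, n = 3) to 4.04 ± 0.309 (SD, n = 3). Neither ratio overlapped between the groups (exact permutation test, two-sided p = 0.1 for each, the smallest p this design allows). This outcome was fixed in advance, because CYCS fell and APAF1 and CASP9 rose, each without overlap. The test therefore adds nothing to the calls of the single genes. The ratio of CASP9 to APAF1 overlapped, at 0.457 ± 0.107 (SD, n = 3) in control cells and 0.477 ± 0.0682 (SD, n = 3) in rhArg cells (exact permutation test, two-sided p = 0.8).

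**Figure D4:**
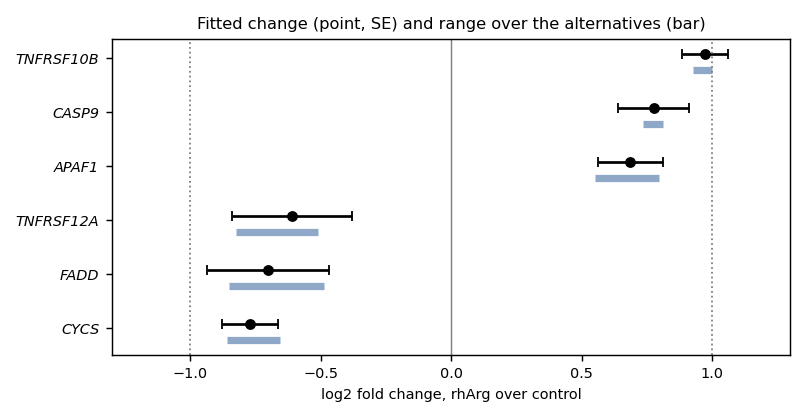
Log2FC in rhArg cells against control (x axis) of the 6 genes that passed the filter, as the fitted value with its SE (point) and as the range over 14 alternative analyses (bar), with dotted lines at the DEG threshold of 1 in each direction. TNFRSF10B reached 0.97, CASP9 0.78 and APAF1 0.69, whereas TNFRSF12A had -0.61, FADD -0.70 and CYCS -0.77.

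The order of the genes by level per length leaves out FADD, whose level of 13.5 ± 1.46 TPM (SD, n = 3) in control cells and 8.83 ± 2.48 TPM (SD, n = 3) in rhArg cells is a low estimate, as given above. In the controls, TNFRSF10B was highest with 133 to 153 TPM in the 3 libraries, followed by CYCS with 97.8 ± 15.2 TPM (SD, n = 3). APAF1 came next with 18.7 ± 3.59 TPM (SD, n = 3), and its libraries lay above those of TNFRSF12A, between 8.93 and 13.6 TPM. CASP9 stood at 8.29 ± 0.230 TPM (SD, n = 3), followed by CASP8 and TNFRSF10A. Under rhArg, TNFRSF10B had 292 ± 8.24 TPM (SD, n = 3) and CYCS 60.8 ± 1.32 TPM (SD, n = 3). APAF1 followed with 31.9 ± 2.93 TPM (SD, n = 3), and CASP9, with 15.1 ± 0.803 TPM (SD, n = 3), stood above TNFRSF12A, with 8.34 ± 0.541 TPM (SD, n = 3). These neighbors did not overlap between libraries in either condition, and the place of CASP8 and TNFRSF10A at the low end rests on few counts.

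Of 10 further caspase genes, 4 passed the filter, of which 3 were higher and 1 was lower, and CASP1, CASP4, CASP5, CASP12 and CASP14 had 0 counts in every library. CASP2, the initiator caspase with the highest level, had a log2FC of 0.53 (SE 0.09). CASP6, an executioner caspase, had -1.26 (SE 0.17). Summed over CASP2, CASP8, CASP9 and CASP10, the level per length was 50.0 ± 4.20 TPM (SD, n = 3) in control cells and 79.1 ± 2.69 TPM (SD, n = 3) in rhArg cells, which did not overlap (exact permutation test, two-sided p = 0.1). CASP2 and CASP9 make up most of this sum and each rose without overlap, so the test adds little to their calls. CASP9 made up 16.6% ± 1.19 (SD, n = 3) of the initiator sum in control cells and 19.1% ± 1.34 (SD, n = 3) in rhArg cells. In all, 11 such ratios, sums and shares were tested, and the 8 with p = 0.1 in the exact permutation test had a Benjamini-Hochberg adjusted p of 0.138.

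Among the proteins that restrain caspases, XIAP, a direct inhibitor of CASP9, rose with it. The log2FC of XIAP was 0.70 (SE 0.10, edgeR adjusted p = 1.33e-05), and its ratio to CASP9 in TPM was 5.74 ± 0.888 (SD, n = 3) in control cells and 5.44 ± 0.333 (SD, n = 3) in rhArg cells (exact permutation test, two-sided p = 0.6). Of 9 inhibitor of apoptosis genes, 4 passed the filter, of which 2 were higher, 1 was lower and 1 was not called (30.7% higher and 30.9% lower among all genes tested). BIRC5 (survivin), which also acts in mitosis, had -1.67 (SE 0.10), and BIRC6 had 0.28 (SE 0.10), a call lost without control replicate 2, rhArg replicate 1 or rhArg replicate 3.

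Of 16 other mitochondrial death factors and partners of cytochrome c, all passed the filter, and 9 were lower, 3 were higher and 4 were not called, with a median log2FC of -0.38. The shares over all genes tested were 30.9% lower and 30.7% higher, with a median log2FC of -0.005. PHB1, an inner membrane scaffold protein with 18.8% of its exon bases in other genes, had -1.32 (SE 0.09), the outer membrane channel gene VDAC1 -1.03 (SE 0.09), and AIFM1, an oxidoreductase that can act as a death factor, -0.80 (SE 0.09). DIABLO, which relieves the inhibition of caspases by XIAP, had 0.81 (SE 0.19), with 24.7% of its exon bases in other genes. AIFM2, a ubiquinone reductase with 19.2% of its exon bases in other genes, had 1.09 (SE 0.21) and PMAIP1 (NOXA), a BH3-only gene, 1.43 (SE 0.11). The protease gene HTRA2, with 32.3% of its exon bases in other genes (log2FC -0.15, edgeR adjusted p = 0.245), and HCCS, the enzyme that attaches heme to cytochrome c (0.12, edgeR adjusted p = 0.386), were not called.

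Of 14 caspase substrates and executors, 10 passed the filter, of which 2 were higher, 2 were lower and 6 were not called, with a median log2FC of -0.13. The shares over all genes tested were 30.7% higher and 30.9% lower. The inhibitor and the nuclease of caspase-activated DNA fragmentation moved in opposite directions, with a log2FC of 0.66 (SE 0.09) for DFFA and -1.16 (SE 0.17) for DFFB. The lamin gene LMNA had 0.83 (SE 0.13) and PARP1, a DNA repair enzyme that caspases cleave, -0.68 (SE 0.08).

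**Figure D5:**
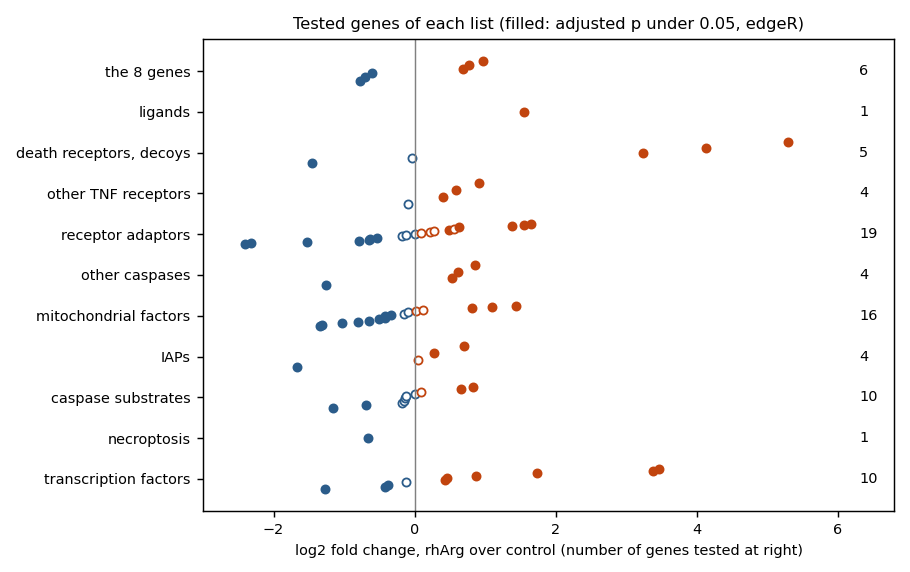
Log2FC in rhArg cells (x axis) of each tested gene, with 1 point per gene, for the 8 genes and 10 related lists, filled where the adjusted p from edgeR was under 0.05 and open where it was not. The number of genes tested stands at the right, and 61.7% of all genes tested were called.

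Across the 10 related lists, 74 of 118 genes passed the filter, of which 28 were higher, 25 were lower and 21 were not called. The median log2FC of these 74 genes was -0.002, and 23 of them were DEGs, a description that includes genes which passed the filter through 1 group alone. Among all genes tested, 23.4% were DEGs, 30.7% were higher and 30.9% were lower.

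Of 10 transcriptional regulators known to act on some of these genes, 6 were higher and 3 were lower, against 30.7% and 30.9% of all genes tested. DDIT3 (CHOP), an activator of TNFRSF10B in the stress response, had a log2FC of 1.73 (SE 0.12), with 39.6% of its exon bases in other genes. MYC had 3.37 (SE 0.15) and the mitochondrial coactivator PPARGC1A 3.47 (SE 0.31) on 17 control counts. PPARGC1A passed the filter through its rhArg counts alone and could enter only as a higher gene, so the tally of this list is a description. NRF1, a factor known for CYCS and other respiratory genes, fell with a log2FC of -1.28 (SE 0.14, edgeR adjusted p = 1.21e-06). E2F3 had -0.42 (SE 0.09). Whether these factors act on the 8 genes in these cells was not tested.

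The profiles of TNFRSF10B and CYCS over the 6 libraries were shared by many genes. By the Euclidean distance between centred log2 scaled counts (CPM), the genes most like TNFRSF10B were PHACTR4 (distance 0.0451), CCDC97 (0.0722) and MCOLN3 (0.0752), and 1208 genes lay within a distance of 0.5. Those most like CYCS were FBXL4 (0.0482), RPGRIP1L (0.0555) and DNAJC24 (0.0568), with 1506 genes within 0.5.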

How the data were processed

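RNA-seq libraries of Y79 cells (3 control, 3 rhArg) were grouped by their titles. The authors used SOAPnuke for read filtering and HISAT2 for alignment to hg38 (versions not given in the sources used here) and took gene counts from featureCounts 2.0.1 (Ensembl release 112, no strand option). The deposited values are raw counts, and the unused per-sample columns numbered 0. IDs were paired with symbols for 62541 of 63140 gene IDs.

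Testing used edgeR 4.0.16 under R 4.3.3 (filterByExpr and TMM, then glmQLFit and glmQLFTest with condition as the only term), with p-values adjusted by the Benjamini-Hochberg method over 15221 genes. The standard error is the log2 fold change over the square root of F. TPM was computed from counts and exon length. The script was checked on simulated counts. Replicates of a group were distinct libraries (chi-square of their counts over its degrees of freedom 3.62 to 16.2). The 37 mitochondrial gene IDs had 0 counts and were not assessed. Intervals cover counting error only.

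The 8 genes, the lists and the motifs were chosen with earlier results of these data known. Named from the lists were up to 3 higher and 3 lower members with the smallest adjusted p, and those that share a role with the 8 genes, and some of these are not reported here. POU4F2, PRDM1, TNFAIP3 and the caspases at 0 were named after their values were seen. Alternatives were DESeq2 1.42.0, RLE, upper-quartile and no scaling factors, no or a stricter filter, each library left out, and the replicate block. DESeq2 on the filtered genes was added after the data were seen.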

Additional observations from a re-analysis of the deposited data

How the results depend on the processing

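The log2 fold changes of the 6 tested genes kept their direction in all 14 alternatives, and TNFRSF10B, CASP9, APAF1 and CYCS kept an adjusted p under 0.05 in each. TNFRSF12A lost its call in 6 alternatives and FADD in 2. With DESeq2 on all genes with any count, and in edgeR with no filter, 1 of the 8 genes was a DEG in place of 0 (CASP8, which the filter removes). Leaving out 1 library gave between 0 and 1 DEG and between 1 and 3 lower genes among the 8 (1 without control replicate 2), and between 1 and 2 higher inhibitor of apoptosis genes, and the cause was not tested. Without the filter, 5 of 9 death receptors and decoys were higher in place of 3 of 5, beside 5082 of all 32795 genes tested there. The genes of this list that the filter had removed had at most 9 counts in any library, so this tally is a description. With the replicate block, 3 of the 8 genes were higher and 3 were lower, as without it, and 4694 of all genes were higher and 4691 lower. Deviations of same-numbered libraries had correlations of -0.0785, 0.0589 and 0.00403, and control replicate 1 correlated best with rhArg replicate 3. These values come from deviations about means of 3 libraries. They cannot decide whether same-numbered libraries shared a culture or batch. Depth limits TNFRSF10A, CASP8, FAS and CASP10, which had at most 20 counts in a library.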
